A study of Mus musculus with 8 samples.

Results

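The genes of the respiratory chain and ATP synthase were followed in poly(A) RNA of mouse subcutaneous fat. They were chosen by symbol, from the Nduf, Sdh, Uqcr, Cyc1, Cox4 to Cox8, Atp5 and mitochondrial mt-Nd, mt-Co, mt-Cytb and mt-Atp names, with Cox7a1, Cox8b and symbols holding -ps set aside. Of 99 symbols that matched, 3 were set aside, and 96 of the 18022 genes in the count table remained. Of these, 83 are encoded in the nucleus and 13 in mitochondrial DNA. The nuclear members comprised 35 genes of complex I, 4 of complex II, 9 of complex III, 16 of complex IV and 18 of complex V, and Cox4nb, which is only a neighbour of Cox4i1 and no subunit. The mitochondrial members comprised 7 genes of complex I, 1 of complex III, 3 of complex IV and 2 of complex V. A few of the nuclear names are not core subunits. Atp5l2 is annotated as a pseudogene, Atp5s is a coupling factor, and Atp5sl is named for its likeness to Atp5s and is no subunit. Cox7a2l is a factor of respiratory supercomplexes. Ndufa4 and Ndufa4l2 were counted with complex IV, where Ndufa4 is now placed.

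The study compared 4 mice labelled Pkd1 flox/flox (WT) with 4 labelled as carrying the adipocyte deletion, Pkd1 adipo delta/delta (KO), all C57BL/6J back-crossed 4 times, and each library came from its own mouse. All mice of both groups therefore carry a floxed Pkd1 allele or its deleted form; no source used here gives the Cre driver, the animals' age or their diet. By Pkd1 the study means protein kinase D1 (gene symbol Prkd1), and its title links the deletion to higher energy dissipation. A name such as KO3 stands for the library with that label and replicate number.

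The respiratory chain passes electrons from NADH (complex I) and succinate (complex II) through ubiquinone, complex III and cytochrome c to complex IV, and the proton gradient it builds drives ATP synthase (complex V). Mitochondrial DNA encodes the core membrane subunits of complexes I, III, IV and V, whereas complex II is wholly nuclear. It is transcribed as long precursors that are cut into shorter messages. The overlapping genes mt-Atp8 and mt-Atp6, and mt-Nd4l and mt-Nd4, are not separate in them. White fat holds few mitochondria beside brown or beige fat, in which respiratory capacity rises during cold exposure, and several subunits of complex IV exist as tissue-specific isoforms.

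Total counts ran from 2617755 reads in WT2 to 2873457 in KO2. Levels are given in CPM, the usual count scaled by library size (here the reads of tested genes, with TMM factors). The targeted gene, Prkd1 (ENSMUSG00000002688), drew 72 to 94 reads per WT library and 71 to 108 per KO library, a log2 fold change of 0.06 ± 0.15 (SE), so its reads over the whole gene and tissue did not check the labels. Directions are therefore given between the labels KO and WT, whatever the deletion was. Of the adipocyte markers, all 12 were present, with summed levels between 21158 and 25969 CPM. Skeletal muscle markers (21 of 24 in the table) summed to between 156 and 652 CPM in the WT libraries and to 3627, 2300, 488 and 4077 CPM in KO1 to KO4, all 21 had positive fold changes, and Pvalb, Tcap, Mylpf and Myoz1 were at 0 reads in WT4 alone. Liver markers (8 of 8) summed to 1488 CPM in WT1 and 1291 CPM in WT4, against 112 to 518 CPM in the other libraries. Tissue holds many cell types, and fewer mitochondria-rich cells cannot be told apart from less message per cell.

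None of the 94 tested respiratory chain genes was called different between the labels. Nuclear members lay slightly to the KO-lower side, with a median log2 fold change (KO over WT) of -0.04 over 81 tested members, 29 positive and 52 negative. The mitochondrially encoded members lay to the other side, with a median of 0.14 and 12 of 13 positive. The median over all 14556 tested genes was 0.00, with 7290 positive. Among the 6609 tested genes at or above the lower quartile of nuclear members in mean CPM, 3146 were positive and 3463 negative, with a median of -0.01. A gene was tested if it passed the edgeR filter on low counts, which 94 of the 96 members did; Cox6a2 and Cox6b2 did not.

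With the edgeR quasi-likelihood test at an adjusted p of 0.05, 0 of 14556 genes (0%) and 0 of 94 members were called. At an unadjusted p of 0.05 edgeR gave 653 genes (4.49%) and 0 members, and the smallest member p was 0.0918 for Uqcrq. DESeq2 called 49 of 17986 genes (0.272%) and 0 members. The authors' deposited table has 436 of 18022 genes (2.42%) at an adjusted p of 0.05, and 1 member among them, Cox6a2. All 4 KO libraries lay above all 4 WT libraries in 223 tested genes (1.53%) and below them in 202 (1.39%), and in 0 members in either direction. The groups thus overlapped in each of the 94 tested members. The 95% interval of the fold change lay within 2-fold either way in 93 of the 94, the exception being Cox4i2, and within 1.5-fold in 79.

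**Figure D1:**
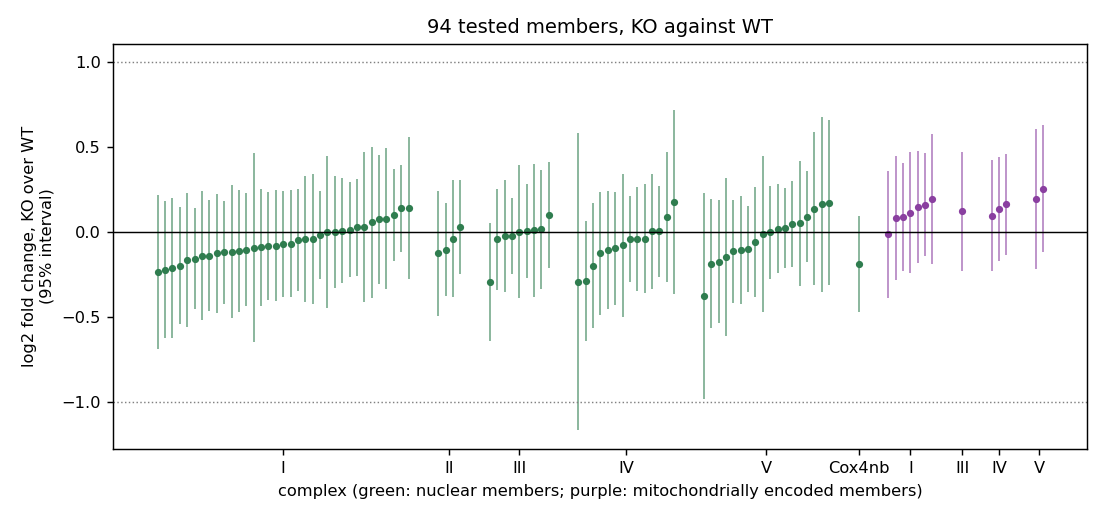
Log2 fold change (KO over WT, vertical axis) of the 94 tested members with 95% intervals, ordered by size within each complex; green points are nuclear and purple points mitochondrially encoded members, and dotted lines mark 2-fold. Every interval crosses 0, and the mitochondrial points lie at or above 0 except mt-Nd2 at -0.01.

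What the members did share was a common movement from mouse to mouse that crossed the labels. Summed over the 83 nuclear members, the level was 6156, 8120, 6750 and 7162 CPM in WT1 to WT4 and 7629, 5979, 7287 and 6252 CPM in KO1 to KO4. WT2 and KO1 were the highest and KO2 and WT1 the lowest, so each label held libraries at both ends and the groups overlapped. The group means were 7047 ± 826 CPM (SD, n = 4) for WT and 6786 ± 795 CPM for KO. The 13 mitochondrial members summed to 29294, 25188, 34529 and 26928 CPM in WT1 to WT4 and to 32023, 33875, 28454 and 31397 CPM in KO1 to KO4. Here WT3 and KO2 were the highest and WT2 and WT4 the lowest, and the groups overlapped again, at 28985 ± 4061 CPM for WT and 31437 ± 2250 CPM for KO. Mitochondrial members took between 2.42% (WT2) and 3.43% (WT3 and KO2) of the reads of a library, and nuclear members between 0.606% (KO2) and 0.779% (WT2).

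**Figure D2:**
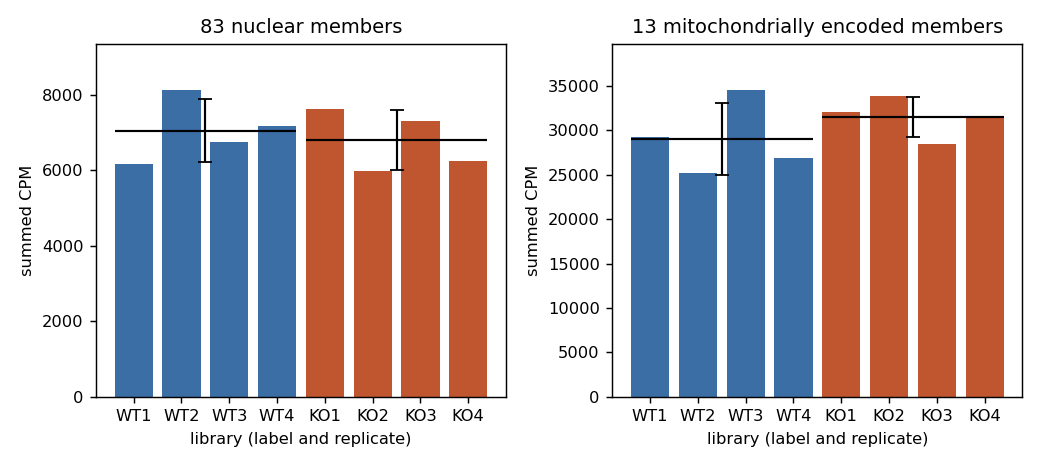
Summed CPM (vertical axis, from 0) of the nuclear members and of the mitochondrially encoded members in each library, blue for WT and orange for KO; lines and bars show the group mean ± SD (n = 4). WT2 has the highest nuclear sum, 8120 CPM, and the lowest mitochondrial sum, 25188 CPM, while KO2 has the lowest nuclear sum.

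The ratio of the mitochondrial to the nuclear sum set the libraries in an order that also crossed the labels. It was 4.76, 3.10, 5.12 and 3.76 in WT1 to WT4 and 4.20, 5.67, 3.905 and 5.02 in KO1 to KO4. The lowest value was in WT2 and the highest in KO2. The group means, 4.18 ± 0.92 for WT and 4.70 ± 0.80 for KO (SD, n = 4), differed by less than the spread within either group.

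The nuclear movement ran through every complex. As the median deviation of a complex's members from their own means (log2 CPM with a pseudocount of 0.5), complex I stood at -0.19, 0.27, -0.01 and 0.03 in WT1 to WT4 and at 0.12, -0.21, 0.09 and -0.14 in KO1 to KO4. The 4 genes of complex II stood at 0.24 in WT2 and -0.21 in KO2, complex III at 0.23 and -0.22, complex IV at 0.28 and -0.24, and complex V at 0.19 and -0.15. The nuclear members of all 5 complexes were thus above their means in WT2, KO1 and KO3 and below them in WT1, KO2 and KO4. WT2 held the highest level of 46 of the 81 tested nuclear members (56.8%), against 19.0% of all tested genes, and KO2 the lowest of 31 (38.3%), against 13.2%. Between WT2 and WT1, which carry the same label, 73 of 81 nuclear members (90.1%) were higher in WT2, with a median log2 difference of 0.40, whereas over all tested genes 50.9% were higher and the median was 0.01. KO1 exceeded KO2 in 73 of 81 as well, with a median of 0.36.

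The mitochondrial members moved in another order. Those of complex V, mt-Atp6 and mt-Atp8, stood at 0.09, -0.45, 0.21 and -0.32 in WT1 to WT4 and at 0.09, 0.40, -0.24 and 0.22 in KO1 to KO4, and the 7 genes of complex I at 0.10, -0.26, 0.23 and -0.23 and at 0.07, 0.17, -0.08 and 0.10. WT3 exceeded WT4 in 13 of 13 mitochondrial members, with a median log2 difference of 0.43, but in only 29 of 81 nuclear members. WT2 fell below KO2 in 13 of 13 mitochondrial members and stood above it in 77 of 81 nuclear members. These are descriptions of 8 libraries, and the mitochondrial members share their precursors, apart from mt-Nd6 on the other strand. The reads counted for mt-Nd6 cannot be assigned to a strand.

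**Figure D3:**
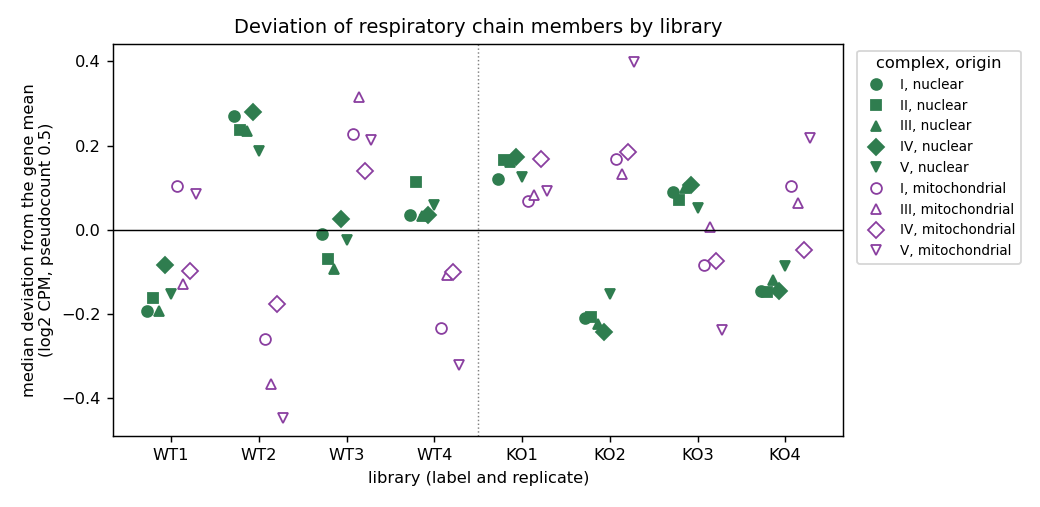
Median deviation from the gene mean (log2 CPM, vertical axis) of the tested members of each complex in each library; filled green symbols are nuclear and open purple symbols mitochondrially encoded members, and the dotted line parts WT from KO. In WT2 the nuclear complexes lie between 0.19 and 0.28 and the mitochondrial ones between -0.45 and -0.18; in KO2 the order is turned.

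Other gene groups followed the order of the nuclear members to differing degrees, and some did not follow it. The mitochondrial ribosomal proteins (80 tested), which build the ribosome that translates the mitochondrial messages, deviated by -0.13, 0.22, 0.04 and 0.02 in WT1 to WT4 and by 0.07, -0.11, 0.02 and -0.05 in KO1 to KO4. The thermogenic adipocyte markers, of brown and beige fat, had wider swings, at -0.57, 0.15, 0.30 and 0.09 in WT1 to WT4 and at 0.22, -0.22, 0.60 and -0.39 in KO1 to KO4, with the sign of nuclear complex I in all libraries but WT3. Cox8b, which is in that list and was set aside by the rule, deviated from -1.003 in WT1 to 0.982 in KO1. Cox7a1, also set aside, did not pass the filter and is not in these values. Complex I assembly factors did not follow the order, at -0.09, 0.02, 0.04 and -0.06 in WT and at 0.02, 0.04, 0.14 and 0.09 in KO. As a median, the 12 adipocyte markers deviated by -0.17, 0.09, -0.01 and 0.01 and by 0.15, -0.07, 0.10 and -0.09 in KO1 to KO4, with the sign of nuclear complex I in each of the 8 libraries. Single adipocyte markers ran the other way: Lpl, the lipase that frees fatty acids from lipoproteins, stood at 7925 CPM in WT1 against 3989 CPM in WT2 and at 4293 CPM in KO1 against 7373 CPM in KO2, and Lep and Pparg were likewise higher in WT1 than WT2 and in KO2 than KO1. The summed level of the 12, in which Lpl weighs heavily, was highest in WT1 (25969 CPM), where their median deviation was lowest. Skeletal muscle markers were highest in KO1, KO2 and KO4, of which KO1 was high and KO2 and KO4 low in nuclear members. The part of these cell types in the movement was not tested.

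Promoters of the nuclear members were searched as a description of these genes. Any part of the motifs in the shared movement was not tested. The 250 bases before the start site were taken from RefSeq (GRCm38.p6) for 66 of the 83 nuclear members, and both strands were searched for 2 short motifs. The first, CGCANGCG (CGCNTGCG on the other strand), is the core of the site of nuclear respiratory factor 1; it lay in 16 of the 66 promoters (24.2%) and in 6.95% of the 27025 promoters of the table. The second, CCGGAAG on either strand, is a core of sites bound by the ETS family, to which GABP (nuclear respiratory factor 2) belongs; it lay in 11 of 66 (16.7%) and in 7.07% of all. At least 1 of the 2 lay in 34.8% of the members' promoters and 13.1% of all, and the median GC content was 56.2% against 52.0%. By complex, the first motif lay in 8 of 31 promoters of complex I, 2 of 3 of complex II, 0 of 5 of complex III, 1 of 11 of complex IV and 5 of 16 of complex V. A match is a description of letters, not a site in use.

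The stretches below end 0 to 23 bases before the start site and read 5′ to 3′ along the gene, with the motif in capitals. For each complex 1 gene with a match is shown. Cox8a is shown as one without, having the highest level per length of the nuclear members in the counts as given. All lie on the minus strand: Ndufs5 at chr4:123718203-123718322, Sdhd at chr9:50603850-50603909, Uqcrh at chr4:116075072-116075191, Cox6a1 at chr5:115348982-115349101, Atp5e at chr2:174464106-174464225 and Cox8a at chr19:7217617-7217736. Within these stretches Ndufs5 and Cox6a1 carry the nuclear respiratory factor 1 core, and Sdhd, Uqcrh and Atp5e the ETS core, as its reverse complement CTTCCGG. A stretch had to be free of annotated exons, and of 55 members with a usable one, 9 had a match in it. Of each complex's members with a match in such a stretch, the one with the highest level per length was taken. Members with higher levels and a match only elsewhere in the 250 bases, such as Sdha and Ndufa8, were thus not eligible. Ndufs5 was thus chosen by its promoter and its level.
Ndufs5: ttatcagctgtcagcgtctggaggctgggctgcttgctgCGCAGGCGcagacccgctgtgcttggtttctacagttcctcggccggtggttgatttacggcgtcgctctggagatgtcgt
Sdhd: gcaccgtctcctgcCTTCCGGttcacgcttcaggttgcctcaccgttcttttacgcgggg
Uqcrh: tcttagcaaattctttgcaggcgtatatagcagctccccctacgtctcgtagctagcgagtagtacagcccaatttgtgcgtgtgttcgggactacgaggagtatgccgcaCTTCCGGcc
Cox6a1: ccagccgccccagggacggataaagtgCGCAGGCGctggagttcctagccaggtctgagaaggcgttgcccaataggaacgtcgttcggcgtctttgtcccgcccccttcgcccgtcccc
Atp5e: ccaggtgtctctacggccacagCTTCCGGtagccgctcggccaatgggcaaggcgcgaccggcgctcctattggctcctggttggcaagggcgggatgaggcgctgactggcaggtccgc
Cox8a: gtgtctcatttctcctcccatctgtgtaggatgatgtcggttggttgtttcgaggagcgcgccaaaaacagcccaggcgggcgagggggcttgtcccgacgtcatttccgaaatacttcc

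Complex I, NADH dehydrogenase, had 11 positive and 24 negative fold changes among 35 tested nuclear members, from -0.23 to 0.14, with a median of -0.07. The smallest p in the complex was that of Ndufb10, an accessory subunit of the membrane arm. It stood at 61.7, 82.0, 66.8 and 85.7 CPM in WT1 to WT4 and at 73.9, 50.8, 76.8 and 57.1 CPM in KO1 to KO4. KO2 and KO4 were the lowest and KO1 and KO3 lay inside the WT range, and the log2 fold change was -0.20 ± 0.16 (SE; edgeR, adjusted p = 0.998). Ndufs1, the largest subunit and the carrier of iron-sulfur clusters in the NADH-oxidising arm, stood at 77.4, 98.7, 92.6 and 86.5 CPM in WT and at 92.7, 96.8, 110 and 92.4 CPM in KO. The KO libraries lay in the upper part of the WT range and KO3 above it, at 0.14 ± 0.12. Its exons share 489 bases with Gm11602 on the other strand, so reads of these genes cannot be told apart there. Ndufa3, a small accessory subunit, ran from 27.5 to 35.7 CPM in WT and from 18.9 (KO2) to 35.9 CPM (KO3) in KO, at -0.22 ± 0.19. Ndufb9, the nuclear complex I member with the highest level per length, ran from 88.6 to 125 CPM in WT and from 80.3 to 114 CPM in KO.

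Complex II, succinate dehydrogenase, also a Krebs cycle enzyme, had 1 positive and 3 negative values. Sdha, the flavoprotein that oxidises succinate, stood at 313, 409, 338 and 378 CPM in WT1 to WT4 and at 422, 283, 408 and 289 CPM in KO1 to KO4. KO1 lay above the WT maximum, KO3 just under it, and KO2 and KO4 below the WT minimum, so the KO libraries fell on both sides of the WT range. The log2 fold change was -0.04 ± 0.16, with a 95% interval from -0.38 to 0.31. Sdhb, the iron-sulfur subunit, ran from 78.6 to 140 CPM in WT and from 85.8 to 99.9 CPM in KO (-0.12 ± 0.17). Sdhd, a membrane anchor, ran from 82.2 to 109 and from 76.2 to 96.4 CPM (-0.10 ± 0.13). The other anchor, Sdhc, stood at 79.3, 92.7, 78.3 and 79.5 CPM in WT and at 100, 88.2, 74.3 and 74.2 CPM in KO. WT2 stood apart from 3 close WT values, and the fold change was 0.03 ± 0.13.

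Complex III, ubiquinol-cytochrome c reductase, had 5 positive and 4 negative nuclear values with a median of 0.00. Uqcrq (ENSMUSG00000044894), a small membrane subunit, had the smallest p of all members. It stood at 66.1, 81.2, 97.9 and 82.4 CPM in WT1 to WT4 and at 75.4, 51.8, 80.7 and 59.9 CPM in KO1 to KO4. KO2 and KO4 lay below the WT range and KO1 and KO3 inside it, and WT3 was the highest. The log2 fold change was -0.29 ± 0.16 with a 95% interval from -0.64 to 0.05 (edgeR, adjusted p = 0.998). Uqcrfs1, the Rieske iron-sulfur protein, ran from 91.4 to 121 CPM in WT and from 91.0 to 138 CPM in KO (0.10 ± 0.14), and Uqcr10, a small subunit, from 40.7 to 59.3 and from 44.3 to 52.6 CPM (-0.04 ± 0.14). Uqcrh, the hinge protein, hardly varied among the libraries. It stood at 133, 128, 133 and 128 CPM in WT and at 134, 122, 125 and 134 CPM in KO, and its highest value was 1.09 times its lowest.

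Complex IV, cytochrome c oxidase, had 4 positive and 10 negative values among 14 tested nuclear members, with a median of -0.06. Cox6a1 (ENSMUSG00000041697), the widely expressed form of a regulatory subunit, had the next smallest p of all members after Uqcrq. It stood at 199, 264, 231 and 251.7 CPM in WT1 to WT4 and at 233, 141, 228 and 174 CPM in KO1 to KO4. KO2 and KO4 were below the WT range and KO1 and KO3 inside it, at -0.29 ± 0.16 (edgeR, adjusted p = 0.998). Cox7c, a small subunit, was level in WT, between 43.4 and 48.8 CPM, and spread in KO from 30.9 (KO2) to 57.0 CPM (KO1), at -0.20 ± 0.17. Cox4i1, a regulatory subunit that binds ATP, ran from 211 to 299 CPM in WT and from 185 to 284 CPM in KO (-0.12 ± 0.17). Cox8a stood at 215, 247, 217 and 221 CPM in WT and 270, 176, 234 and 198 CPM in KO, so that its highest and lowest values were both in KO (-0.04 ± 0.14).

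Complex V, ATP synthase, had 8 positive and 10 negative values among the 18 names counted with it, with a median of -0.01. These include Atp5l2 (-0.15), Atp5s (0.17) and Atp5sl (0.14), which are not core subunits. Atp5b, the catalytic beta subunit, was the most abundant nuclear member of the complex, at 864, 1175, 953 and 1026 CPM in WT1 to WT4 and 1048, 806, 1023 and 863 CPM in KO1 to KO4. WT2 was the highest and KO2 the lowest, with the other libraries between them, and the fold change was -0.10 ± 0.15. Its count is uncertain, because Baz2a had 1.11 to 1.21 times the reads of Atp5b in each of the 8 libraries, although these genes share no exon bases in GENCODE M21. Atp5k, a small subunit at the dimer interface, ran from 6.43 to 11.1 CPM in WT and from 4.28 to 8.18 CPM in KO, and had the most negative value of the complex, -0.37 ± 0.28 (95% interval -0.98 to 0.23). Atp5h, of the peripheral stalk, gave -0.18 ± 0.18, and Atp5e, of the central stalk, -0.17 ± 0.17. In all 3 the groups overlapped, and KO2 and KO4 were the lowest libraries.

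In the counts as given, the mitochondrially encoded members were the most abundant per length. mt-Atp6, which forms the proton channel of ATP synthase, had the largest value among them. It stood at 1841, 1364, 2040 and 1440 CPM in WT1 to WT4 and at 1939, 2337, 1582 and 2130 CPM in KO1 to KO4. WT2 and WT4 were low, KO3 lay just above them, and the other KO libraries lay among or above WT1 and WT3. The log2 fold change was 0.26 ± 0.17 with a 95% interval from -0.12 to 0.63 (edgeR, adjusted p = 0.998). mt-Atp8, whose reading frame overlaps it, gave 0.20 ± 0.19, from 391 to 653 CPM in WT and 450 to 738 CPM in KO. A gene named Gm10925 had between 1.07 and 1.16 times the reads of mt-Atp6 in each of the 8 libraries, and Myo3a between 0.119 and 0.128 times those of mt-Co1, so the counts of both mitochondrial genes are uncertain.

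The catalytic core of complex IV showed smaller values. mt-Co1, which holds the oxygen-reducing centre, stood at 9037, 8458, 10919 and 9151 CPM in WT and 10871, 10723, 9366 and 9239 CPM in KO (0.10 ± 0.15). mt-Co2, the docking subunit for cytochrome c, gave 0.14 ± 0.14. mt-Co3 stood at 1513, 1541, 1663 and 1542 CPM in WT and at 1971, 1878, 1569 and 1598 CPM in KO (0.16 ± 0.14), so KO1 and KO2 exceeded all WT libraries and KO3 and KO4 lay within the WT range. mt-Cytb, the core of complex III, ran from 2875 to 4612 CPM in WT and only from 3726 to 4066 CPM in KO (0.12 ± 0.16). Of complex I, mt-Nd4l gave 0.20, mt-Nd6 0.16, mt-Nd4 0.15, mt-Nd3 0.12, mt-Nd5 0.09, mt-Nd1 0.08 and mt-Nd2 -0.01, with standard errors between 0.14 and 0.18. All 7 are membrane subunits of the proton-pumping arm. mt-Nd6 lies on the other strand beside mt-Nd5. Since the kit does not mark strand, reads within mt-Nd6 may come from either strand. The mt-Nd6 count is therefore no separate measure of its own message.

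Both medians turned with KO3 as the only KO library. KO3 itself had median deviations of 0.085 in nuclear and -0.084 in mitochondrial members, which the turn repeats. Without KO1, KO2 and KO4, which had the highest muscle marker sums, the mitochondrial median was -0.02 and the nuclear median 0.05. The part of muscle in this was not tested. The nuclear median was also 0.05 without WT2 alone. The mitochondrial median stayed between 0.08 and 0.23 when single libraries were left out.

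Cox6a2 (ENSMUSG00000030785), the form of Cox6a found in heart and skeletal muscle, was the only member in the authors' deposited table past its threshold, at a log2 fold change of 1.55 and an adjusted p of 0.0217. Its exons share 70 bases with Itgad on the other strand, so reads of these genes cannot be told apart there. Over all libraries Itgad had 251 reads and Cox6a2 70. The authors' call rests on few reads: 7, 4, 6 and 0 for the WT libraries and 20, 12, 4 and 17 for the KO libraries, in replicate order. In CPM these were 2.57, 1.59, 2.14 and 0 in WT and 7.36, 4.12, 1.42 and 6.06 in KO; 0 reads in WT4 allow up to 1.09 CPM, counting error only. KO1, KO2 and KO4 lay above all WT libraries and KO3 inside the WT range. These 3 were also the libraries with the highest muscle marker sums, and the part of muscle in the difference was not tested. An exact two-sided permutation test on log2 CPM gave p = 0.114, where the smallest possible with 4 against 4 is 0.0286. With no filter beyond 10 reads edgeR gave 1.55 ± 0.63 and an adjusted p of 0.977, and DESeq2 gave 1.58 ± 0.68 and made no call.

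**Figure D4:**
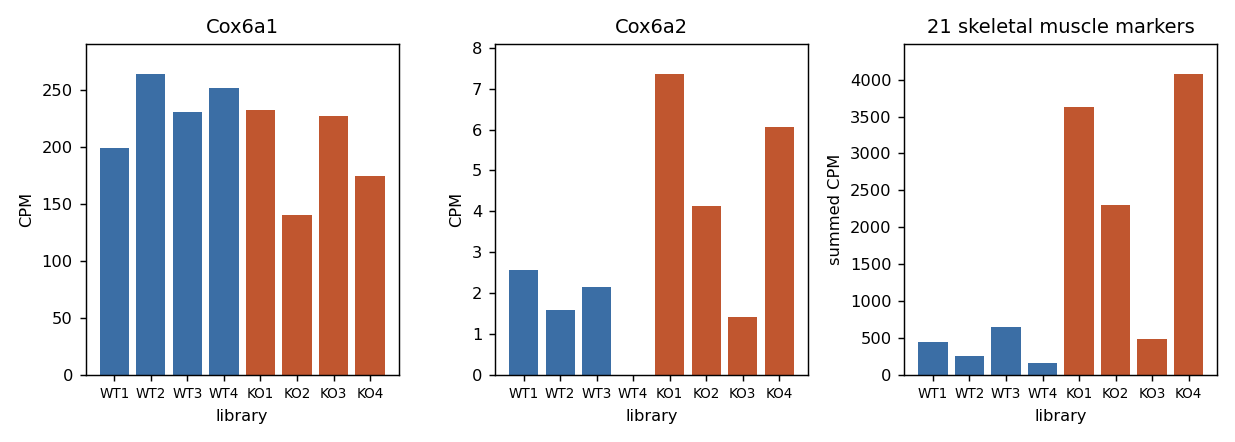
CPM of Cox6a1 and Cox6a2 and summed CPM of 21 skeletal muscle markers in each library, blue for WT and orange for KO, each axis from 0. Cox6a2 and the muscle markers are highest in KO1, KO2 and KO4, and Cox6a1 is lowest in KO2 and KO4.

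Per length of exon, Cox6a2 made up 1.32%, 0.62%, 0.95% and 0% of the Cox6a pair in WT1 to WT4 (at most 0.447% in WT4 with 3 reads) and 3.16%, 2.93%, 0.64% and 3.46% in KO1 to KO4, so Cox6a1 was the dominant form throughout. Cox4i2, the hypoxia-responsive form of Cox4, stood at 2.57, 2.79, 6.43 and 5.11 CPM in WT and 2.21, 2.06, 4.62 and 4.99 CPM in KO. It was higher in WT3, WT4, KO3 and KO4 than in the other 4 libraries, and it made up 1.61% to 5.34% of the Cox4 pair per length. Its fold change was -0.29 ± 0.41. Ndufa4l2, the hypoxia-inducible paralog of Ndufa4, made up 6.85% (WT1) to 14.4% (KO3) of that pair and gave 0.18 ± 0.25, against -0.04 ± 0.15 for Ndufa4. Cox7a2, the widely expressed form of Cox7a, gave -0.09 ± 0.16, and Cox7a2l -0.08 ± 0.19.

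Among the genes of the c-ring of ATP synthase, which were picked after their values were seen, Atp5g3 supplied 85.8% to 89.9% of the reads per kilobase of exon and Atp5g1 and Atp5g2 the rest. Cox6b2, a form found mainly in testis, had at most 1.84 CPM and 0 reads in KO4, which allows up to 1.07 CPM. Of the forms set aside by the rule, Cox8b had 21, 51, 57 and 41 reads in WT and 87, 27, 87 and 26 reads in KO, and Cox7a1 between 4 and 13 reads.

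Levels between genes were compared per kilobase of exon, as means over the 8 libraries. Among the mitochondrial members mt-Co1 was highest at 6292 CPM per kilobase, followed by mt-Cytb at 3268, and mt-Nd3 was lowest at 370. In these counts the 13 mitochondrial means lay above all nuclear means, though mt-Nd3 and Cox8a at 359 overlapped across libraries (255 to 432 and 284 to 436). The counts of Atp5b, mt-Atp6 and mt-Co1 are uncertain, as given above, so their places in this order are not settled. Over all libraries Baz2a had 24496 reads and Atp5b 21277. Whether Atp5b lies above Cox8a or mt-Nd3 is therefore open. The highest nuclear members after Cox8a were Cox6a1 (306), Atp5b (229), Atp5a1 (159) and Cox4i1 (156), and in the other complexes Uqcrh (105), Ndufb9 (94.2) and Sdha (86.0) led. The complex II genes lay at 86.0 (Sdha), 75.0 (Sdhd), 43.1 (Sdhb) and 25.6 (Sdhc), although their proteins form one complex in equal number. Exon lengths are those of all annotated transcripts joined, so a gene with a long rare exon is understated.

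**Figure D5:**
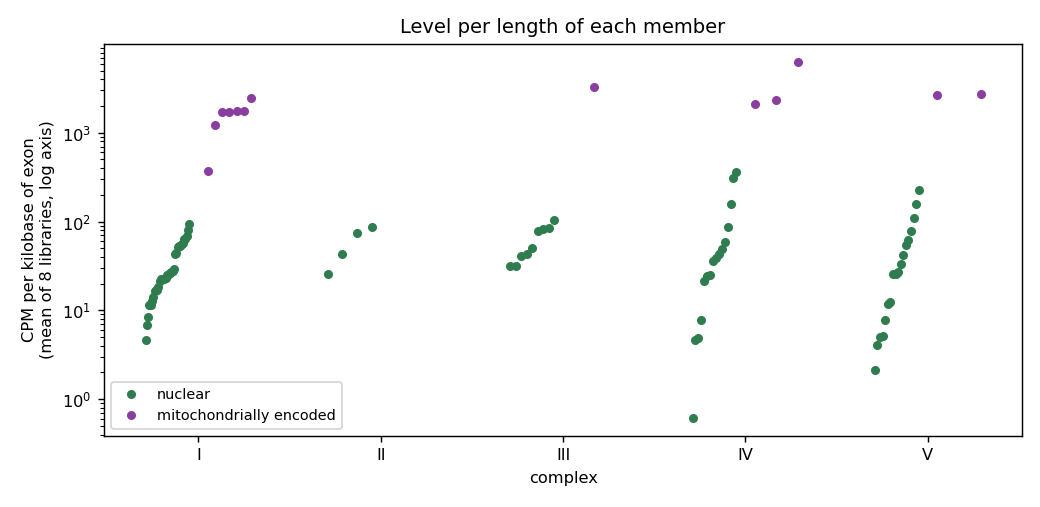
Mean CPM per kilobase of exon over the 8 libraries (vertical log axis) of each member by complex, green for nuclear and purple for mitochondrially encoded members. The purple points run from 370 (mt-Nd3) to 6292 (mt-Co1), above the highest green point, Cox8a at 359. The counts of Atp5b, mt-Atp6 and mt-Co1 are uncertain, so their places are not settled.

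The other genes of the pathway gave no call either. Assembly factors had 6 positive of 10 tested for complex I (median 0.04), 4 of 5 for complexes II and III (0.14), 3 of 12 for complex IV (-0.15) and 1 of 3 for complex V (-0.10). Genes of the mobile carriers ubiquinone and cytochrome c had 11 of 14 positive (median 0.09), and those that copy and transcribe mitochondrial DNA 6 of 9 (0.06). Mitochondrial ribosomal proteins had 31 of 80 positive (-0.06) and markers of mitochondrial mass 5 of 14 (-0.02). In all these lists 0 genes passed the adjusted threshold in edgeR.

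Regulators of respiratory genes had 10 of 12 positive values, with a median of 0.14. Esrra, the estrogen-related receptor that switches on respiratory genes, stood at 39.6, 45.8, 43.6 and 44.9 CPM in WT1 to WT4 and at 57.0, 50.1, 59.4 and 56.3 CPM in KO1 to KO4. All 4 KO libraries lay above all 4 WT libraries, at 0.36 ± 0.12 (edgeR, adjusted p = 0.998), which does not pass over all genes although Esrra is 1 of the 653 under an unadjusted 0.05. The groups of Gabpb1, a subunit of GABP, were also apart, at 18.7 to 23.2 CPM in WT and 23.5 to 26.3 CPM in KO (0.18 ± 0.14). These were 2 of 12 regulators, against 1.53% of all tested genes, and both were named after their values were seen. Ppargc1a, the coactivator of mitochondrial biogenesis, ran from 9.15 to 14.7 CPM in WT and from 8.91 to 18.1 CPM in KO (0.15 ± 0.25).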

How the data were processed

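RNA of subcutaneous fat from 8 mice was isolated with DNase treatment, poly(A)-selected and prepared with the NEBNext Ultra RNA kit, per the labels' protocols; the standard form of this kit keeps no strand. Deposited by the authors were whole-number counts, not normalized, for each Ensembl gene in each library. Their other table holds log2 fold changes with p-values and adjusted p-values of KO against WT, per the file headers. FastQC, Bowtie2, edgeR and mm9 are named in the submitters' processing notes; roles, versions, the counting tool and the annotation are not stated in the labels. Genes in the table of the authors had passed a filter on low counts before deposit, and 0 columns of other samples were found.

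Groups and replicate numbers came from the titles, and each column was matched to its sample by the mouse label. KO and WT were compared in edgeR 4.0.16 under R 4.3.3, by a robust quasi-likelihood fit of the label alone after filterByExpr and TMM scaling. P-values were adjusted by Benjamini-Hochberg over 14556 genes, with 0.05 as threshold, and the script was tested on simulated data. Each standard error is the fitted log2 difference divided by the square root of F, intervals are 95%, and biological variation was 18.4% (common dispersion 0.0337). Levels are TMM-scaled CPM, and deviations are of log2 CPM with a pseudocount of 0.5. Exon lengths and overlaps came from GENCODE M21 by Ensembl identifier, and promoters from RefSeq on GRCm38.p6; since the counts were made on mm9, no coordinate was carried between builds. The alternatives were other scaling factors, other filters, limma-voom (limma 3.58.1), DESeq2 1.42.0, a likelihood ratio test, the replicate number as a block, an adjusted p of 0.1, and libraries left out.

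The members, the 18 gene lists and the tests were chosen with earlier results of these data known. Named by rule were the 3 tested members with the smallest p in nuclear complexes I, III, IV and V, the Sdh genes, the 13 mitochondrial members, 4 isoform pairs and the member of each nuclear complex with the highest level per length; Ndufs5, Atp5g1, Atp5g2, Atp5g3, Cox6b2 and genes of other lists were named after their values were seen. Replicates are separate mice by their labels. Chi-square values per gene within a label were at least 4.45, so all 8 libraries were kept as distinct. Ucp1 and Dio2 were not analysed here.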

Additional observations from a re-analysis of the deposited data

Results flagged for a closer look

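In the libraries labelled WT, Sdhc stood at 92.7 CPM in WT2 and between 78.3 and 79.5 CPM in the other 3. The gap from WT2 to its nearest neighbour was 0.914 of the group's range, above Dixon's 95% critical value for 4 samples. Of 92 groups examined in this way, 1 was set apart, and chance alone gives about 1 in 20. WT2 was also the library with the highest level of most nuclear members.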

How the results depend on the processing

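Under every alternative run, 0 members were called higher and 0 lower. The nuclear median ran from -0.12 to 0.05 with single libraries left out, positive without WT2, and the mitochondrial median from 0.08 to 0.23. With the replicate block the medians were -0.05 and 0.15; the deviations of same-numbered libraries correlated at -0.14, -0.29, -0.20 and -0.27, so the numbers did not pair the samples, and the block called 0 genes. Without KO1, KO2 and KO4, KO3 is assumed to vary like the WT libraries, and single genes were followed only among the isoform pairs. Of these, Cox4i1 (0.17), Cox4i2 (0.12), Cox7a2 (0.15) and Cox7a2l (0.018) changed sign, and Cox6a1, Ndufa4 and Ndufa4l2 did not. The signs of the other named genes were not examined in that setting. With single libraries left out the sign also changed for Sdha (-0.14 to 0.052), Sdhb (-0.23 to 0.077), Sdhc (-0.062 to 0.090), Uqcr10 (-0.12 to 0.057), Uqcrfs1 (-0.021 to 0.18), Uqcrh (-0.038 to 0.0021), Cox7a2 (-0.18 to 0.00079), Cox7a2l (-0.22 to 0.078), Cox8a (-0.15 to 0.053), Ndufa4 (-0.16 to 0.069), Ndufa4l2 (-0.0056 to 0.34), Ndufb9 (-0.18 to 0.046), mt-Nd1 (-0.0052 to 0.17), mt-Nd2 (-0.096 to 0.095) and mt-Nd3 (-0.013 to 0.23); none of these had passed a threshold, and the cause was not tested. Over all genes, edgeR's likelihood ratio test called 54 higher and 4 lower, and the main test without KO3 called 50 higher. The planned stricter filter of 2 CPM in 4 libraries kept 16061 genes, more than the main one. Depth limits Cox6a2 and Cox6b2, with at most 20 and 5 reads in a library.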

Other observations

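Marker groups had these summed levels. Thermogenic adipocyte markers (9 of 10 in the table, 5 of 7 tested positive) summed to 197 to 293 CPM in WT and 214 to 346 CPM in KO. The largest of their fold changes was that of Cpt1b, the muscle and brown fat form of carnitine palmitoyltransferase, at 0.62 ± 0.23 (log2; edgeR, adjusted p = 0.998). It was picked after its value was seen, and Kcnk3 (-0.27) and Prdm16 (-0.12) were negative. Macrophage markers (8 of 9) summed to 915 to 1348 CPM in WT and 958 to 1160 CPM in KO, and fibroblast and progenitor markers (8 of 8) to 2527 to 3358 CPM and 2285 to 3013 CPM. Lymphoid markers (8 of 9, 1 tested) summed to 69.7 to 135 CPM in WT and 45.6 to 66.7 CPM in KO, and erythroid markers (5 of 7) to 622 to 1399 CPM and 313 to 1034 CPM.

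Within the pathway, Coq7, an enzyme of ubiquinone synthesis, stood at 17.99, 23.1, 21.4 and 20.8 CPM in WT1 to WT4 and at 14.3, 18.2, 14.9 and 17.1 CPM in KO1 to KO4. KO2 lay just inside the WT range and the other KO libraries below it, at -0.36 ± 0.16 (edgeR, adjusted p = 0.998). Tfam, which packages and transcribes mitochondrial DNA, ran from 21.4 to 27.1 CPM in WT and from 17.8 to 23.2 CPM in KO, at -0.32 ± 0.16 (edgeR, adjusted p = 0.998). Both were picked after their values were seen.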
